A study of Helianthus annuus with 24 samples.

Results

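Floral nectaries of the sunflower (Helianthus annuus) lines labelled medium in nectar production, 452 and 456, were compared with those of the lines labelled low, 412 and 441. The 12 libraries of these 4 lines, 3 per line, were chosen from the 24 of the study by their labelled line and nectar class. All 4 lines are interspecific crosses, so each nectar class is represented by 2 genotypes that differ in background. Every library was RNA of about 50 nectaries, pooled from different plants and dissected by hand from open, secreting florets of plants about 40 days old. Dissection was spread over several days, between 4 and 8 h after dawn, in a greenhouse at 23 °C with 16 h of light and 8 h of dark. No treatment separated the groups, and nectar volumes of the plants that gave the RNA are not analysed here.

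A floral nectary secretes sugar. In Arabidopsis and tobacco, starch stored in the nectary is broken down, sucrose is resynthesized by sucrose phosphate synthases and leaves the cell through the facilitator SWEET9. A cell wall invertase then splits the sucrose outside the cell, which keeps sugar and water moving outward. The YABBY factor CRC is needed for nectaries to form in Arabidopsis, and MYB21, together with auxin, jasmonate and gibberellin signals, governs the ripening of the nectary and the opening flower.

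The deposited table holds 42063 assembled contigs, of which 18797 (44.7%) were matched to an Arabidopsis gene, whose name is used here. A gene name can stand for more than 1 contig, among which its reads could be split. The table gives no sequences, so whether such contigs are alleles, copies or fragments cannot be told apart. Values are whole-number, upper-quartile-normalized expression scores, and a read was worth an estimated 0.678 to 1.34 of these units, which puts the 12 libraries at 9.383 to 16.09 M reads. Changes are log2(value + 1), the mean of lines 452 and 456 minus the mean of lines 412 and 441, and a contig was called at a limma adjusted p under 0.05 over all contigs tested. The nectary markers were abundant in every library. The CRC contig Helianthus1659 lay between 16230 and 29545 in the 12 libraries, against a leaf mean of 58.33, and the SWEET9 contig Helianthus17324 lay between 7069 and 66552, against 70.67 in leaf.

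Replicate 3 of line 452 and replicate 2 of line 456 stood apart from their sister libraries. Replicate 3 of line 452 was at least 4-fold below the mean of its sisters, on the log2(value + 1) scale, in 9691 contigs, where the 6 low libraries were so in 51 to 204. It held 2662 contigs at 2 or less that both sisters had at 20 or more, although its estimated depth of 12.63 M reads was ordinary. Its rank correlation across contigs was 0.788 and 0.819 with its sisters and 0.836 with replicate 1 of line 412, the closest library of another line. Contigs lost in this library, named after their values were seen, included the plasma membrane proton pump AHA3 (Helianthus29756, 8 against 531 and 360 in the sisters) and the ethylene factor EIL1 (Helianthus24424, 17 against 823 and 829). Replicate 2 of line 456 was at least 4-fold above its sisters in 708 contigs and at least 4-fold below in 749. In it the beta-galactosidase BGAL12 (Helianthus32071) reached 7126 against 245 and 292, whereas SWEET10 (Helianthus10294) stood at 1615 against 30380 and 27424. The abscisic acid hydroxylase CYP707A1 (Helianthus14298) was at 129 there, against 2416 and 2163. Results that these libraries change are therefore given with and without them.

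**Figure D1:**
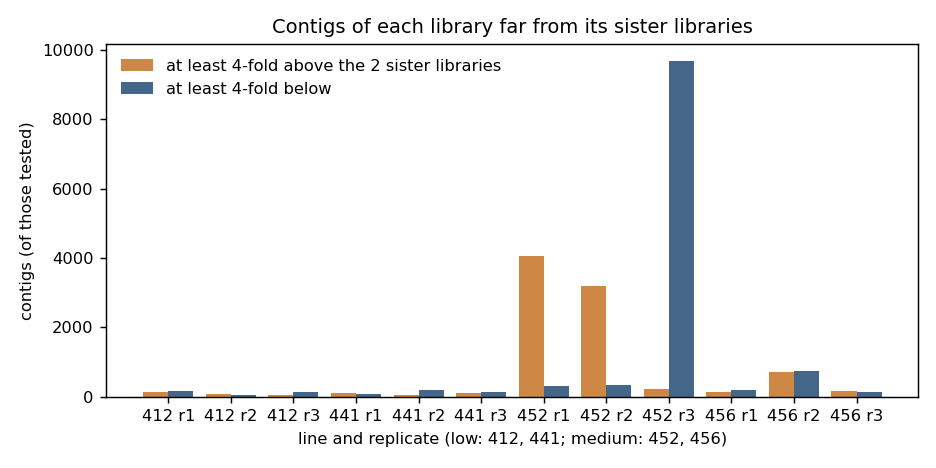
Number of contigs, of 38457 tested, at least 4-fold above (orange) or below (blue) the mean of the other 2 libraries of the line, for each of the 12 libraries. Replicate 3 of line 452 had 9691 contigs below its sisters, and its sisters had 4066 and 3197 contigs above a mean that includes it; in line 456, replicate 2 had 708 above and 749 below.

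A further pattern was seen in replicate 1 of line 452. It held 209 contigs at 20 or more that both sisters had at 2 or less, against at most 14 in any other of the 12 libraries. Of the 209, 112 were at 20 or more in all 6 low libraries, and 26 of those were at 2 or less throughout line 456. As many, 112 of the 209, were at 20 or more in all 3 libraries of line 456. Among the 112 found in the low libraries, the value in replicate 1 was a median of 0.475 times the mean of the low libraries. The gibberellin enzyme KAO1 is one of them and is described below.

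Over all 38457 contigs tested, 2186 were called higher in the medium lines (5.68%) and 3456 lower (8.99%), together 14.7%. The median change over all contigs was -0.15, and it was -0.03 without the replicates 452-3 and 456-2 (replicate 3 of line 452 and replicate 2 of line 456), so small decreases lie near the centre of the distribution. Without these libraries 3004 contigs were higher (7.81%) and 4125 lower (10.7%), together 18.5% of 38465, and 4942 of the 5642 calls (87.6%) remained in the same direction. Leaving out replicate 1 of line 452 alone gave 5916 lower of 38452, and leaving out its replicate 2 alone gave 5597 of 38428. Counts of the gene lists in those fits, and in the fit without 452-3 and 456-2, are to be read against these totals. The medium lines themselves differed in 4473 contigs (11.6%), including 2023 of the 5642 (35.9%). Both medium line means lay beyond both low line means in 4155 of the calls, 1490 higher and 2665 lower. With 1 value per line, 2 lines against 2, no contig passed in either direction, the lowest adjusted p was 0.0562, and 2957 contigs had an unadjusted p under 0.05 (7.69%). The p-values therefore describe pools of plants from these 4 lines, and nectar class and genotype cannot be told apart.

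All 6 medium libraries lay above all 6 low libraries in 349 contigs (0.908% of those tested) and below them in 656 (1.71%), together 2.61%. Among the called contigs with an Arabidopsis match, chitinase A, which cleaves chitin of fungal walls, was the most abundant of the 10 largest increases. Its only contig, Helianthus19087, read 1776, 3075 and 5266 in line 452 and 2039, 3091 and 4433 in line 456. In the low lines the values were 295, 199 and 216 in 412 and 506, 191 and 422 in 441. The lowest medium library was thus above the highest low library, and the change was 3.42 ± 0.27 (SE), or 10.7-fold (adjusted p = 3.81e-08). Lines 452 and 456 did not differ detectably in it (difference 0.01, adjusted p = 0.989). The high-nectar lines covered the whole range, from 99 to 12051.

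Many of the largest increases were contigs near 0 in the low lines. A ribonuclease III family contig (Helianthus4441) read 119 to 232 in the medium libraries, with a median of 191, and 0 or 1 in the low libraries. A 20S proteasome subunit contig (PAF2, Helianthus38850) read 72 to 169 with a median of 104.5, and again 0 or 1 in the low libraries. For both genes, another contig of the same match was expressed in both classes. The other ribonuclease III contig, Helianthus4442, was lower in the medium lines, with class means of 1294 and 2004 (change -0.64, adjusted p = 0.000364). The other PAF2 contig, Helianthus38851, had means of 2015 and 1941 (adjusted p = 0.905). Summed over the contigs of a match, PAF2 changed by 0.11 (adjusted p = 0.605) and the ribonuclease III gene by -0.44 (adjusted p = 0.00639), in a test where 5.1% of matches were higher and 6.04% lower. The PAF2 match as a whole thus did not change detectably, and the ribonuclease III match changed in the direction opposite to its contig Helianthus4441. An Ole e 1 family contig (Helianthus7312), the only contig of its match, read 21 to 677 in the medium libraries, with a median of 164.5, and 0 to 2 in the low libraries.

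The SNARE-recycling adaptor alpha-SNAP2 (Helianthus32163) read 169 to 473 in the medium libraries and was at 0 or 1 in line 412 but at 96 to 109 in line 441. The RNA-binding reader ECT2 (Helianthus28305) was at 186 to 224 in line 456 alone, at 1 to 3 in line 452 and at 0 in every low library, so its call rests on line 456. A small-molecule UDP-glycosyltransferase contig (Helianthus34901) was at 3375 to 4941 in line 456 and 245 to 429 in line 452, against 64 to 169 in the low libraries. A caffeoyl-CoA O-methyltransferase-like contig (Helianthus21255) read 447 to 1664, with a median of 1150, against 2 to 166 in the low libraries, where line 412 stood at 13 or less, and its match as a whole was higher too (2.29, adjusted p = 3.13e-06). A phosphodiesterase contig (Helianthus28794) and a mannose-1-phosphate guanyltransferase-like contig (Helianthus13303) completed the 10 largest increases, with changes of 2.82 and 2.70. The Arabidopsis match of the latter is described as ADP-glucose pyrophosphorylase family. Summed over their matches, alpha-SNAP2 (0.11), ECT2 (-0.14), the glycosyltransferase (0.69) and the phosphodiesterase (0.44) did not pass (adjusted p at least 0.053). The match of Helianthus13303 passed (0.57, adjusted p = 0.00356). Without replicates 452-3 and 456-2 the 10 changes lay between 2.57 and 7.51, and all passed.

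The largest decreases were contigs close to 0 in most medium libraries. The KAO1 contig Helianthus20665, whose product oxidizes ent-kaurenoic acid on the way to gibberellin, read 309, 0 and 0 in line 452 and 0, 0 and 1 in line 456. The low libraries read 1049, 879 and 879 in line 412 and 591, 707 and 675 in line 441. No medium library reached a low one, and only replicate 1 of line 452 was above 1 (change -8.07 ± 0.97, adjusted p = 8.24e-06). The second KAO1 contig, Helianthus20666, had the same pattern, at 180 in replicate 1 of line 452, 0 in the other 5 medium libraries and 309 to 461 in the low libraries. These were the only contigs of the match, and their sum changed by -8.55 (adjusted p = 3.62e-05). The high lines stood at 0 to 3 in Helianthus20665, as the medium lines did, and the maintainer line ER, which has no nectar class, had a mean of 361.3.

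The contig with the steadiest decrease encoded an OB-fold nucleic acid-binding protein (Helianthus819). It read 24, 37 and 17 in line 452 and 6, 13 and 7 in line 456, against 1309 to 1648 in the low libraries (change -6.54 ± 0.23, adjusted p = 6.46e-13). A sister contig of the match, Helianthus27934, was called higher (change 2.99, adjusted p = 1.38e-08) because line 441 stood at 11 to 21, while line 412, at 1689 to 2549, was within the medium range of 1140 to 2989, and the match as a whole changed by -0.54 (adjusted p = 0.00917). The contig of a BARD1-like RING protein of DNA repair (Helianthus18281) read 241 in replicate 1 of line 452, 0 to 2 in the other 5 medium libraries and 457 to 624 in the low libraries. A contig of the dehydration-induced ERD15 (Helianthus11699) read 120 in replicate 1, 0 to 2 in the other medium libraries and 237 to 450 in the low libraries. It is 1 of 5 contigs of its match. The most abundant, Helianthus9026, had means of 7502 and 7903, and the match as a whole changed by 0.19 (adjusted p = 0.636). A malectin-like receptor kinase, an ABC-family protein and a ZPR1 zinc finger contig followed the same pattern, with changes of -6.23, -6.56 and -5.25. Summed over their matches the changes were -2.29, -0.37 and -2.04, and the ABC-family match did not pass (adjusted p = 0.312). A contig of a pectin methylesterase with its inhibitor domain (Helianthus39156) was graded instead. It read 433, 314 and 38 in line 452 and 2, 0 and 2 in line 456, and the lines differed (adjusted p = 7e-07). A lipid-transport family contig (Helianthus25679) and a clathrin heavy chain contig (Helianthus26042) completed the 10 largest decreases, at -6.10 and -4.31. Only 1 contig was counted per match, so that the second KAO1 contig (-7.36) is not among the 10. Summed over its match, clathrin changed by 0.10 (adjusted p = 0.588). The BARD1-like and pectin methylesterase matches were lower in sum too (-2.86 and -1.18, adjusted p at most 8.56e-05).

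**Figure D2:**
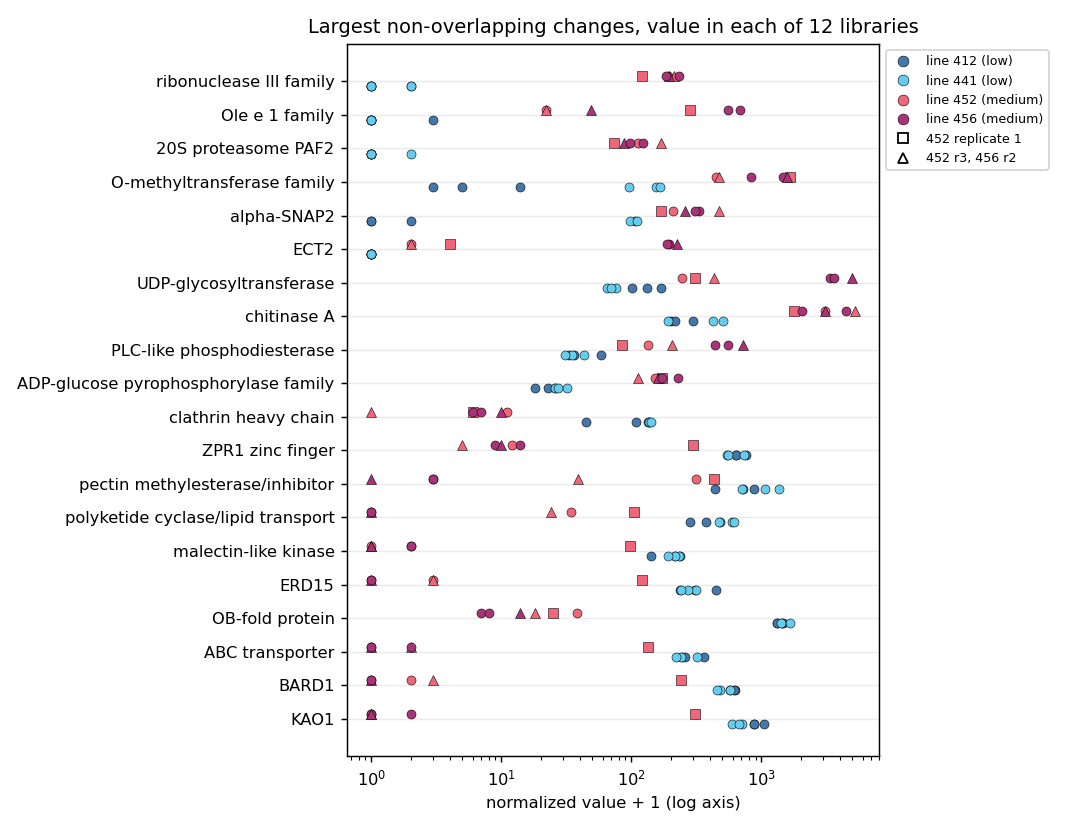
Value plus 1 (log axis) in each of the 12 libraries for the 10 largest increases and 10 largest decreases among called, Arabidopsis-matched contigs whose classes do not overlap. Each point is a library, coloured by line; the square is replicate 1 of line 452 and triangles are replicates 452-3 and 456-2. Among the decreases, replicate 1 of line 452 lay between the other medium libraries and the low libraries in most rows, for example at 309 for KAO1.

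Contigs that were on in 1 class and off in the other were counted over the whole table. At 20 or more in all 6 medium libraries and 2 or less in all 6 low libraries, 23 contigs were found, 6 of them with a match. These included a contig of the clock gene GI (Helianthus13505) at 37 to 81 against 0, thioredoxin Y1 (Helianthus8776) at 26 to 115 against 0, and a RING/U-box protein (Helianthus30698) at 23 to 63 against 0. The reverse pattern held for 19 contigs, 4 with a match, which were a transcription elongation factor TFIIS (Helianthus7971, 81 to 95), myosin 2 (Helianthus40043, 36 to 149), a GroES-like chaperonin (Helianthus33901, 66 to 117) and the drug-resistance transporter PDR7 (Helianthus42106, 43 to 100). All 4 were at 0 in every medium library. None of the 23 medium contigs was off in all 6 libraries of the high lines as well. The GI contig is 1 of 8 of its match. The most abundant, Helianthus13509, had means of 1920 and 1749 (adjusted p = 0.407), and the GI match as a whole changed by -0.11 (adjusted p = 0.68). Line by line, 357 contigs were on in all low libraries and off throughout line 456, against 36 that were off throughout line 452.

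Sugar release came first among the groups. Of 17 contigs for sucrose synthesis and cleavage that were tested, none was higher and 2 were lower (11.8% called, against 14.7% of all contigs), and the median change was -0.27 against -0.15 for all. Without the replicates 452-3 and 456-2, 3 were higher and 5 lower. Up to 5 were lower when 1 library, replicate 1 of line 452, was left out, against 5916 of 38452 contigs over all. Both calls with all 12 libraries were cell wall invertases. The CWINV2 contig Helianthus23193, the only one of its match, read 34847, 28391 and 12445 in line 452 and 6844, 4692 and 8573 in line 456. The low libraries read 38331, 34030 and 31534 in line 412 and 67684, 35379 and 24296 in line 441. Every library of line 456 was below every low library, while replicates 1 and 2 of line 452 overlapped with them. The change was -1.58 ± 0.26, or 2.98-fold lower (adjusted p = 0.000282), and -1.24 without the replicates 452-3 and 456-2 (adjusted p = 0.000806). Line 456 alone was lower than the low lines by 2.49 on the log2 scale (adjusted p = 1.27e-05), and line 452 alone had a change of -0.66 that did not pass (adjusted p = 0.171). The lines differed from each other (adjusted p = 0.00219). In the high lines the same contig read 69306 to 197054, above all 12 libraries of the medium and low lines. The weaker CWINV3 contig Helianthus37004 read 81 to 205 in the medium libraries and 214 to 338 in the low libraries, with no overlap (change -0.94, adjusted p = 0.00527). More abundant CWINV3 contigs did not pass, among them Helianthus32544 with means of 2438 and 1670 (adjusted p = 0.793), and the match as a whole changed by 0.17 (adjusted p = 0.493).

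For the sucrose exporter SWEET9 (Helianthus17324) the replicates of line 456 disagreed. They read 66552, 7069 and 62574, and line 452 read 24873, 18186 and 10255. The low libraries read 13632, 18238 and 16480 in line 412 and 30301, 26848 and 10590 in line 441. Replicates 1 and 3 of line 456 were thus more than any low library and replicate 2 less. The change was 0.33 ± 0.44 (adjusted p = 0.635), and without the replicates 452-3 and 456-2 it was 1.03 (adjusted p = 0.00944). It passed also when replicate 2 of line 456 alone was left out (0.86, adjusted p = 0.043). With those libraries out, line 452 was below line 456 by 1.60 on the log2 scale (adjusted p = 0.00959), so the higher level belonged to line 456.

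The facilitator SWEET10 (Helianthus10294) behaved alike. It read 10247, 4421 and 988 in line 452, 30380, 1615 and 27424 in line 456, 8554, 20641 and 13911 in line 412 and 3556, 4557 and 2894 in line 441. The change was -0.16 ± 0.61 (adjusted p = 0.882) and became 1.00 without the replicates 452-3 and 456-2 (adjusted p = 0.0172). The low lines lay on either side of line 452. The sucrose phosphate synthase SPS4F (Helianthus28575) read 3203, 1538 and 727 in line 452 and 11830, 2853 and 10528 in line 456, against 1403 to 3222 in the low libraries. Here the overall change of 0.73 did not pass (adjusted p = 0.153), but line 456 alone was higher (1.84, adjusted p = 0.00353), and lines 452 and 456 differed (adjusted p = 0.00329). When 452-3 and 456-2 were omitted the change was 1.33 (adjusted p = 7.45e-05), and it passed also with either of them alone left out (adjusted p at most 0.0278). The high lines read 8824 to 12413, near the values of replicates 1 and 3 of line 456.

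SUS4, SPS1F, CRC and MYB21 did not pass. SUS4, a sucrose synthase (Helianthus24021), had class means of 4282 ± 2810 and 4976 ± 1218 (SD, n = 6 each; change -0.52, adjusted p = 0.368). SPS1F (Helianthus37345), the synthase linked to nectar in Arabidopsis, had 1948 ± 575.2 and 2608 ± 552.7 (change -0.44, adjusted p = 0.0723), and it passed as lower without the replicates 452-3 and 456-2 (-0.55, adjusted p = 0.00395) and without 456-2 alone (adjusted p = 0.00215). CRC (Helianthus1659) had 23764 ± 5297 and 24785 ± 2337 (change -0.09 ± 0.12, adjusted p = 0.641), and MYB21 (Helianthus32958) had 2796 ± 1395 and 3582 ± 1094 (change -0.52, adjusted p = 0.302). Of the 18 tested contigs in the list of nectary development and nectar secretion, none passed in either direction, against 14.7% of all contigs. With the replicates 452-3 and 456-2 left out, 2 were higher, SWEET9 and a MYB21 contig (Helianthus32957, 0.71), and 5 were lower. The latter were 3 contigs of the auxin response factor ARF6, between -0.55 and -1.03, and 2 of SPS1F.

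**Figure D3:**
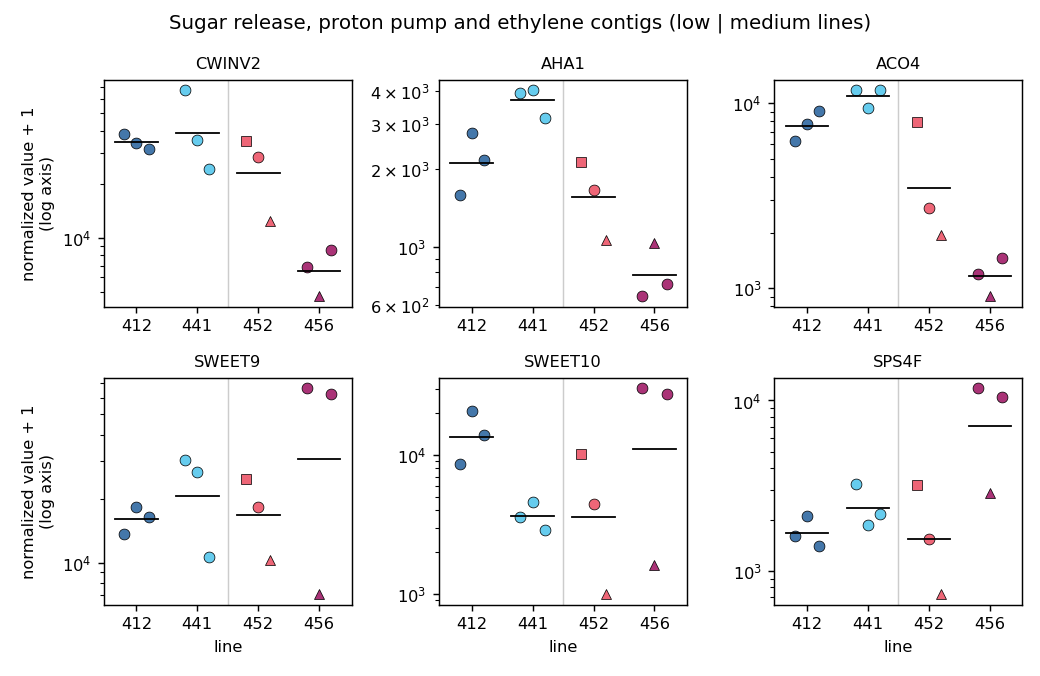
Value plus 1 (log axis) by line for the contigs of CWINV2, AHA1, ACO4, SWEET9, SWEET10 and SPS4F; points are libraries, bars the line mean of log2(value + 1), triangles the replicates 452-3 and 456-2 and the square replicate 1 of line 452. CWINV2, AHA1 and ACO4 stepped down from line 452 to line 456, whereas SWEET9, SWEET10 and SPS4F were high in replicates 1 and 3 of line 456 and near or under the low lines in its replicate 2.

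Among sugar transporters, 1 of 31 tested contigs was higher and 4 lower (16.1% called, against 14.7% of all contigs), with a median of -0.09. Without the replicates 452-3 and 456-2, 3 were higher and 5 lower. The hexose proton symporter STP13 (Helianthus26813) was higher, with class means of 43.5 and 8.333 (change 3.23, adjusted p = 1.78e-05). Line 441 was at 0 in all libraries, and line 412, at 14 to 21, overlapped with line 452, at 14 to 45. A SWEET7 contig (Helianthus33780) read 70 to 169 in the medium libraries and 207 to 516 in the low libraries without overlap (-1.37, adjusted p = 0.00101). The more abundant SWEET7 contig, Helianthus15801, had means of 1872 and 4327 but did not pass (-1.45, adjusted p = 0.0803), and in replicate 3 of line 452 it was at 4334 against 663 and 1213 in the sisters. The STP7 contigs were lower by 1.85 and 0.95 on the log2 scale. For the second, Helianthus29820, line 412 read 139 to 291, while line 441, at 18 to 28, overlapped with line 452, at 8 to 38, and that call ended when any 1 of 5 libraries was left out (highest adjusted p 0.0991). The inositol transporter INT1 (Helianthus17569) changed by -0.64 (adjusted p = 0.0362), a call that leaving out any 1 of 8 libraries ended (highest adjusted p 0.104).

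Proton pumps energize sugar transport. Of 32 contigs tested, 4 were higher and 2 lower (18.8% called, against 14.7% of all contigs), or 5 and 4 without the replicates 452-3 and 456-2. The plasma membrane pump AHA1 (Helianthus29751) read 2133, 1668 and 1066 in line 452, 644, 1034 and 720 in line 456, 1587, 2753 and 2178 in line 412 and 3942, 4040 and 3159 in line 441. Line 456 was below every low library and line 452 overlapped with 412. The change was -1.34 ± 0.19, or 2.53-fold lower (adjusted p = 5.64e-05), and -1.30 without the replicates 452-3 and 456-2. AHA5 (Helianthus26081) was lower as well, at 12 to 107 against 80 to 302 (-1.95, adjusted p = 0.00118). The pump AHA8 (Helianthus13938) was called higher (1.63), although line 412, at 301 to 333, matched the medium libraries at 271 to 386 and only line 441 was low, at 26 to 44. Contigs of the vacuolar pumps VHA-A2 (Helianthus2241, 34 to 102 against 0 to 32, change 2.80) and AVP1 (Helianthus28838, 0.43) were higher.

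Aquaporins, which let water follow sugar, gave 1 higher and 3 lower of 28 contigs (14.3% called, against 14.7% of all contigs). Without replicate 1 of line 452, 7 were lower, against 5916 of 38452 contigs over all. The tonoplast channel TIP4;1 was lower in both its contigs, Helianthus6786 at 6 to 309 against 142 to 261 (-2.26, adjusted p = 0.00437) and Helianthus6785 (-2.83), with replicate 1 of line 452 above the others in both. The plasma membrane aquaporin PIP1;4 (Helianthus19481) was lower by 0.74 on the log2 scale. The boric acid channel NIP5;1 (Helianthus21808) read 2283 to 7965 in the medium libraries and 1239 to 2695 in the low libraries (1.07, adjusted p = 0.0189). That call ended without the replicates 452-3 and 456-2 (0.72, adjusted p = 0.0711).

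Of 40 ethylene contigs, none was higher and 5 lower (12.5% called, against 14.7% of all contigs), with a median of -0.65 against -0.15 for all contigs. When 452-3 and 456-2 were omitted the counts were 2 higher and 7 lower, and the median was -0.17. Over the 12 fits that leave out 1 library, 3 to 15 contigs were lower, with the most when replicate 1 of line 452 was out. Over all contigs that fit gave 5916 lower of 38452. The leading member was ACO4, the last enzyme of ethylene synthesis. Its contig Helianthus5749 read 7928, 2732 and 1945 in line 452 and 1190, 904 and 1461 in line 456, against 6210 to 11766 in the low libraries. All but replicate 1 of line 452 lay below the low range, and the change was -2.18 ± 0.26, or 4.52-fold lower (adjusted p = 6.82e-06). It was -1.88 without the replicates 452-3 and 456-2, lines 452 and 456 differed (adjusted p = 0.0065), and line 452 alone was still below the low lines (-1.39, adjusted p = 0.00753). The repressor kinase CTR1 was lower in 2 contigs, at -0.77 (Helianthus3371) and -1.38 (Helianthus3373). The receptor EIN4 (Helianthus13852) changed by -0.91 and by -0.45 without the replicates 452-3 and 456-2, with replicate 452-3 at 46 against 188 and 261. Its call ended when any 1 of 7 libraries was left out (highest adjusted p 0.111).

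Of 29 gibberellin contigs, 6 were lower (20.7%, against 8.99% of all contigs) and none higher. Besides the KAO1 contigs these were the receptor GID1B (Helianthus20263, -0.92, adjusted p = 0.000813), the DELLA repressor RGA (Helianthus34353, -0.67), the F-box protein SLY1 (Helianthus17257, -1.43) and ent-kaurene synthase KS (Helianthus27910, -1.91). GID1B was at 514 to 600 in line 441, while line 412, at 106 to 160, overlapped with the medium libraries at 111 to 219. SLY1 was at 4 and 8 in replicates 2 and 3 of line 452, and line 456, at 101 to 126, overlapped with the low libraries at 100 to 133. KS was a difference of single lines as well, with 177 to 595 in line 452 and 480 to 661 in line 412 but 6 to 19 in line 456 and 77 to 118 in line 441. In Arabidopsis SLY1 marks DELLA proteins such as RGA for breakdown, so the lower contigs belong to genes with opposed roles. The summed level of the list was 7074 to 8924 in the medium libraries and 9480 to 11772 in the low libraries, without overlap. This sum includes both KAO1 contigs, which alone held 591 to 1049 and 309 to 461 in the low libraries. In replicate 2 of line 441 they held 707 and 440 of the sum of 9480, while replicate 2 of line 456, with a sum of 8924, held 0 of both. Without the KAO1 contigs that low library lies below that medium library. The classes then overlap, so the separation cannot be read as a decrease of the whole list. With the replicates 452-3 and 456-2 left out, 5 were lower, against 10.7% of all contigs. Leaving out 1 library gave 4 to 8, the most without replicate 1 of line 452, where 5916 of 38452 contigs over all were lower.

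Jasmonate contigs went both ways, with 4 higher and 5 lower of 56 (16.1% called, against 14.7% of all contigs). Without the replicates 452-3 and 456-2, 4 were higher and 8 lower. Leaving out 1 library gave 2 to 8 higher, the most without replicate 1 of line 412 (2004 of 38424 over all contigs). It gave 2 to 7 lower, the most without replicate 1 of line 452 (5916 of 38452 over all contigs). The lipoxygenase LOX2 was higher in Helianthus11959 (means 699.7 and 319.8, change 1.00, adjusted p = 1.14e-06) and lower in Helianthus37631 (77.17 and 225.2, change -1.57, adjusted p = 0.0415). The call of Helianthus37631 ended when any 1 of 8 libraries was left out (highest adjusted p 0.107). The receptor gene COI1 was higher in Helianthus14342 (0.80) and lower in Helianthus31450, which was at 0 to 2 in line 456 and 40 to 147 in line 452. The repressor JAZ1 (Helianthus35366) was called lower (-1.68) from line 456, at 3 to 33, while line 452, at 177 to 464, was in the low range of 120 to 472. Of 59 auxin contigs, 1 passed (1.69%), the efflux carrier PIN4 (Helianthus13583). It read 370 to 1233 in the medium libraries and 312 to 506 in the low libraries (1.04, adjusted p = 0.0087), with replicate 452-3 lowest among the medium libraries. When 452-3 and 456-2 were omitted, 2 auxin contigs were higher and 4 lower. With replicate 1 of line 452 left out, 7 were lower, against 5916 of 38452 contigs over all. Of 21 abscisic acid contigs, 1 was lower (4.76% called), the phosphatase HAB1 (Helianthus3458, -0.44), against 1 higher and 4 lower without the replicates 452-3 and 456-2. The HAB1 call ended when any 1 of 8 libraries was left out (highest adjusted p 0.109).

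Regulators of floral organ identity gave 7 lower and none higher of 31 contigs (22.6%, against 8.99% of all contigs lower), with a median of -0.32. Leaving out 1 library gave from 3 lower, without replicate 2 of line 412, to 10, without replicate 1 of line 452. Over all contigs the same fits gave 2606 lower of 38397 and 5916 lower of 38452. The MADS-box gene AP1, which specifies the outer flower organs (Helianthus21482), read 1348 to 4237 in the medium libraries, with a median of 2845, and 4643 to 5855 in the low libraries. The classes did not overlap, and the change was -0.96 ± 0.21 (adjusted p = 0.00376), or -0.66 without the replicates 452-3 and 456-2 (adjusted p = 0.00728). AG, the carpel and stamen identity gene (Helianthus13336), had means of 7696 and 10014 (-0.38, adjusted p = 0.0217), and AP3, the petal and stamen gene (Helianthus22336), 217.7 and 312.7 (-0.51, adjusted p = 0.0135). The ovule homeobox gene BEL1 (Helianthus3704) changed by -0.81. A contig of FIL, a YABBY factor of the lower organ face (Helianthus11663), was at 0 or 1 in line 456, 24 to 55 in line 452 and 36 to 103 in the low libraries (-2.90). The most abundant FIL contig, Helianthus11664, had means of 869.3 and 1004 (adjusted p = 0.241), and the match as a whole changed by -0.22 (adjusted p = 0.229). With the replicates 452-3 and 456-2 left out, 4 of the 31 contigs were lower, near the 10.7% of all contigs. AG and BEL1 no longer passed there (adjusted p = 0.0595 and 0.0615).

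Circadian clock contigs were split, with 4 higher and 4 lower of 65 (12.3% called, against 14.7% of all contigs), or 5 and 9 without the replicates 452-3 and 456-2. Beside the GI contig already named, RVE6 (Helianthus16647) was higher (means 249.8 and 149.5, change 0.74, adjusted p = 0.000775), and FKF1 (Helianthus37705) and LNK1 (Helianthus25503) were lower. Contigs of PRR7, a repressor of the morning loop, went both ways, at 0.51 and 0.45 in Helianthus29733 and Helianthus5101 and at -0.73 and -1.66 in Helianthus29730 and Helianthus5106. The call of Helianthus5106 ended when any 1 of 9 libraries was left out (highest adjusted p 0.0924), and its change was -0.91 without replicate 452-3, which read 1 against 40 and 48. The most abundant, Helianthus29730, had means of 2068 and 3377. Without replicate 2 of line 452, 14 clock contigs were lower, against 5597 of 38428 contigs over all. Dissection spanned several hours of the day, and the hour of each pool is not used here.

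**Figure D4:**
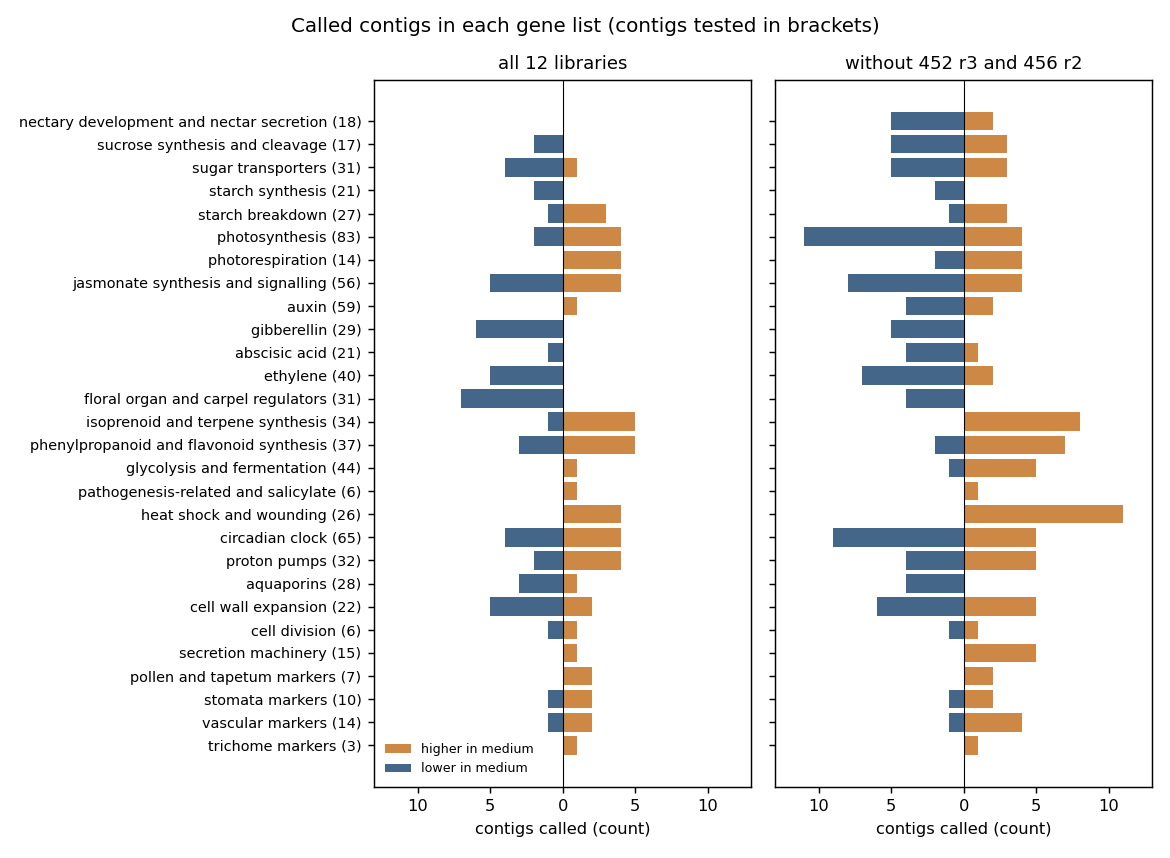
Contigs called higher (right, orange) or lower (left, blue) in the medium lines in each gene list, with the number tested in brackets, for all 12 libraries and without replicates 452-3 and 456-2. Gibberellin and floral regulator contigs were called in 1 direction only, 6 and 7 lower (20.7% and 22.6%, against 8.99% of all contigs). Heat shock contigs rose in number from 4 to 11 higher in the second panel, where all contigs went from 5.68% to 7.81% higher.

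Heat shock and wounding contigs were called higher in 4 of 26 cases and lower in none (15.4% called, against 14.7% of all contigs), with a median of 0.36 against -0.15. The disaggregase HSP101 (Helianthus2208), the only contig of its match, read 641, 219 and 238 in line 452 and 180, 109 and 580 in line 456. The low libraries read 66 to 103, all below the medium ones (1.62 ± 0.37, adjusted p = 0.00494). The chaperone HSP90.1 was higher in Helianthus569 (2.11, adjusted p = 0.0084) and Helianthus28975 (1.64, adjusted p = 0.00836). In Helianthus569, replicate 1 of line 452 reached 2000 and replicate 3 of line 456 reached 1224, while replicate 2 of line 456, at 107, was inside the low range of 61 to 238. The fourth call was a contig of the wound-responsive factor WRKY40 (Helianthus674), at 19 to 60 in line 452, 0 or 1 in line 456 and 0 in all low libraries. Without the replicates 452-3 and 456-2, 11 were higher and none lower, among them HSP70 (Helianthus18006), whose change was 1.55 there (adjusted p = 0.000441) and 1.04 with all 12 libraries (adjusted p = 0.0508). With replicate 452-3 alone left out there were 11 as well, where 6.57% of all contigs were higher and 9.35% lower. Replicates of 1 line differed by more than the classes did in some of these contigs, as in Helianthus569.

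Photorespiration contigs were higher in 4 of 14 cases and lower in none (28.6% called, against 14.7% of all contigs). Their summed level did not follow this count, at 9036 to 40183 in the medium libraries, with a median of 10568, and 9991 to 17982 in the low libraries, with a median of 13296. Replicate 456-2 held the highest sum, 40183, against 10162 and 9036 in its sisters. Glycine decarboxylase GLDP1 (Helianthus35955) read 205 to 512 in the medium libraries and 130 to 270 in the low libraries (0.97, adjusted p = 0.00117). Serine hydroxymethyltransferase SHM1 (Helianthus8127) and glycolate oxidase GOX1 (Helianthus39318) were low in both classes, with medium means of 33.5 and 35 and low means of 9.167 and 6.333. A catalase CAT2 contig (Helianthus20257) differed by 0.38. The second CAT2 contig, Helianthus38569, passed as lower (-1.51, adjusted p = 0.000937) once the replicates 452-3 and 456-2 were left out, when the list gave 4 higher and 2 lower. Of 83 photosynthesis contigs, 4 were higher and 2 lower (7.23% called, against 14.7% of all contigs). RBCS1B, a Rubisco small subunit (Helianthus41497), read 117 to 447 against 38 to 120 (1.68, adjusted p = 0.00191), and 2 contigs of Rubisco activase RCA changed by 1.64 and 1.27. The photosystem I antenna LHCA3 (Helianthus35219) was lower (-1.23). When 452-3 and 456-2 were omitted there were 4 higher and 11 lower, so the balance of this list depended on them. The summed level of the list was 11312 to 40765 in the medium libraries, 12407 to 25158 in the low libraries and a median of 2887336 in leaf.

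Starch stored before anthesis feeds nectar in several species. Of 21 contigs for starch synthesis, 2 were lower (9.52% called, against 14.7% of all contigs). They were starch synthase SS4 (Helianthus4898, -0.71, adjusted p = 0.00822) and the ADP-glucose pyrophosphorylase subunit APS1 (Helianthus17268, 142 to 307 against 280 to 397, -0.55, adjusted p = 0.016). Of 27 for starch breakdown, 3 were higher and 1 lower (14.8% called). The alpha-amylase AMY3 (Helianthus9507) read 84 to 238 against 40 to 99 (0.90, adjusted p = 0.0132), and the phosphoglucan water dikinase PWD (Helianthus15508) had means of 653 and 471.2 (0.50, adjusted p = 0.0233). The beta-amylase calls separated the low lines from each other. BAM2 (Helianthus15366) was at 10 to 25 in line 441 but 153 to 215 in line 412, inside the medium range of 149 to 323. BAM1 (Helianthus13166) was at 124 to 132 in line 412 and 0 to 2 in line 441. Of 44 glycolysis and fermentation contigs, 1 was higher (2.27% called), GAPC1 (Helianthus13493, means 1052 and 598, 0.84). Without the replicates 452-3 and 456-2, 5 were higher and 1 lower, where 7.81% of all contigs were higher and 10.7% lower.

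Isoprenoid synthesis was called higher in 5 of 34 contigs and lower in 1 (17.6% called, against 14.7% of all contigs). DXR, the first committed enzyme of the plastid route (Helianthus19289), read 239 to 501 in the medium libraries and 178 to 224 in the low libraries without overlap (0.74 ± 0.16, adjusted p = 0.00339). A second DXR contig, Helianthus36609, was higher too (1.60). A contig of the isomerase IDI1 (Helianthus6275) had means of 406.5 and 204.7 (0.91, adjusted p = 0.00942). The more abundant IDI1 contig, Helianthus16529, had means of 2745 and 3132 (adjusted p = 0.383), and the match as a whole changed by -0.12 (adjusted p = 0.685). HMGR1 of the mevalonate route (Helianthus15086) was called at 1.69, but with 224 in replicate 456-2 and 23 to 50 in the other 5 medium libraries it did not pass without the replicates 452-3 and 456-2 (adjusted p = 0.0944). Without those replicates 8 contigs were higher and none lower, in a fit where 7.81% of all contigs were higher and 10.7% lower.

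Phenylpropanoid and flavonoid contigs were higher in 5 of 37 cases and lower in 3 (21.6% called, against 14.7% of all contigs). The lower count ran from 1 without replicate 2 of line 412 to 8 without replicate 1 of line 452. Over all contigs the same fits gave 2606 lower of 38397 and 5916 of 38452. Contigs of the entry enzymes 4CL2 (Helianthus15161) and 4CL1 (Helianthus15162) both changed by 1.05, with 4CL2 at 158 to 459 against 105 to 164. The 4CL1 call ended when any 1 of 8 libraries was left out (highest adjusted p 0.0875). Summed over their matches, 4CL2 (0.29, adjusted p = 0.237) and 4CL1 (0.47, adjusted p = 0.37) did not pass. A C4H contig (Helianthus35571) changed by 1.04, while a second C4H contig (Helianthus33515) was lower (-0.90). The methyltransferase COMT1 (Helianthus10256) had means of 1328 and 740.8 (0.73, adjusted p = 0.0141). A contig of ferulate 5-hydroxylase F5H (Helianthus6771) was lower, at 96 to 429 against 312 to 1137 (-1.68, adjusted p = 0.00194). The most abundant F5H contig, Helianthus30697, had means of 7102 and 8106 (adjusted p = 0.247), and the match as a whole changed by -0.42 (adjusted p = 0.145). Flavanone 3-hydroxylase F3H (Helianthus37566) was lower by 0.93 on the log2 scale. The F3H call came from line 412, at 280 to 383, since line 441, at 53 to 59, lay within the medium range of 31 to 178. The 1 call of 6 pathogenesis-related contigs (16.7% called, against 14.7% of all contigs) was a basic chitinase, PR3 (Helianthus8989, means 35.33 and 9.167).

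Cell wall genes had 5 lower and 2 higher of 22 contigs (31.8% called, against 14.7% of all contigs). With the replicates 452-3 and 456-2 left out, 6 were lower and 5 higher, and the median moved from -0.43 to 0.09. The expansin EXPA8, which loosens walls, was lower in both contigs. Helianthus42240 read 58 to 109 in the medium libraries, 82 to 122 in line 412 and 196 to 368 in line 441 (-1.20, adjusted p = 0.0002). The xyloglucan enzyme XTH9 (Helianthus5425) was called higher (1.59), and line 456, at 549 to 825, carried it, since line 452 read 55 to 305 against 59 to 174 in the low libraries. The pectin methylesterase PME3 was lower in 2 contigs. In Helianthus8102 (-0.99) line 456 read 750 to 841, while line 452, at 1637 to 3955, overlapped with the low libraries at 1452 to 4987. In the secretion machinery, 1 of 15 contigs was higher (6.67% called), the plasma membrane syntaxin SYP121 (Helianthus13442). It read 157 to 212 against 72 to 145, without overlap (0.78 ± 0.19, adjusted p = 0.00769). Without the replicates 452-3 and 456-2, 5 contigs were higher and none lower, SNAP33 (Helianthus24259, 0.79) and KEULE (Helianthus18178, 0.45) included. In that fit 7.81% of all contigs were higher and 10.7% lower. Cell division contigs were few, with the kinase CDKB2;2 (Helianthus37620) higher and CYCD3;1 (Helianthus32814) lower among 6 (33.3% called, against 14.7% of all contigs). The CDKB2;2 call ended when any 1 of 8 libraries was left out (highest adjusted p 0.114).

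**Figure D5:**
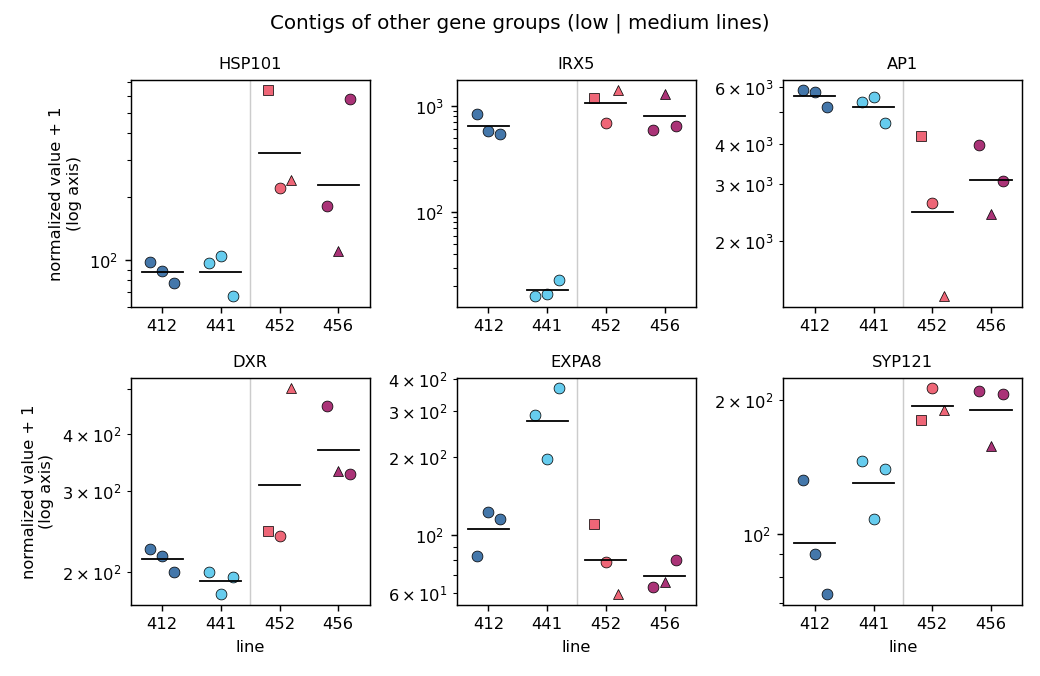
Value plus 1 (log axis) by line for contigs of HSP101, IRX5, AP1, DXR, EXPA8 and SYP121, with points, bars and symbols as in the plot of sugar genes. HSP101, AP1, DXR and SYP121 separated the classes, whereas IRX5 and EXPA8 set line 441 apart from the other 3 lines.

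Markers of other tissues that a dissection could carry were checked as lists. For pollen and tapetum, 3 of 14 genes had a contig, and the summed level was 2047 to 4703 in the medium libraries and 1346 to 3532 in the low libraries, most of it from the receptor kinase ANX1, whose main contig Helianthus12194 had means of 2414 and 2192 (adjusted p = 0.682). The weaker contig Helianthus16265 was called higher (2.33) although line 412, at 258 to 353, exceeded the medium libraries at 65 to 197, because line 441 was at 1 or 2. For stomata, 2 of 12 genes had a contig, and the sum of 1687 to 2627 against 1297 to 1878 was mostly the kinase OST1. The OST1 contigs summed to 1669 to 2541 in the medium libraries and 1247 to 1646 in the low libraries, without overlap. Helianthus32305 (3.18) and Helianthus32324 (0.68) were called higher and Helianthus32311 (-1.37) lower. The call of Helianthus32324 ended when any 1 of 5 libraries was left out (highest adjusted p 0.09). For vascular tissue, 6 of 9 genes had a contig, and the sums overlapped, at 11609 to 26202 and 14321 to 20958. The secondary wall cellulose synthase IRX5 was called higher in Helianthus30792 (3.07, adjusted p = 2.6e-07) and Helianthus30795 (2.51). Helianthus30792 read 594 to 1408 in the medium libraries, 542 to 844 in line 412 and 15 to 22 in line 441, so the class difference was mainly that of line 441. For trichomes, 2 of 6 genes had a contig, with sums of 189 to 401 and 215 to 300. The part of other tissues in the differences above was not tested, and in pooled tissue fewer cells of a type and less RNA per cell cannot be told apart.

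Of the 79 called contigs named under the rule, 67 had both medium line means beyond both low line means, 31 did not overlap in any library, and 76 passed in the same direction without the replicates 452-3 and 456-2. The 10 largest increases and 10 largest decreases among them were chosen for not overlapping, so the rule fixed their part of the 67 and the 31. Over all 5642 calls, 4155 had line means in such order, 944 did not overlap and 4942 passed in the same direction without these replicates. In 19 of the 79 the medium lines also differed from each other. Line 456 alone against the low lines gave 2418 contigs higher (6.29%) and 3147 lower (8.18%), and line 452 alone 1564 higher (4.07%) and 2593 lower (6.74%). Of these, 729 were higher in both, which is 46.6% of the contigs of line 452 and 30.1% of those of line 456, and 749 were lower in both, 28.9% and 23.8%. In 264 contigs the lines were called in opposite directions. The 2 comparisons share the low libraries.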

How the data were processed

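Nectary RNA of sunflower was sequenced as 50-base read pairs from TruSeq RNA v2 libraries on an Illumina HiSeq, as the labels' protocols state. Deposited values are upper-quartile-normalized expression scores per assembled contig, per the labels, and all are whole numbers in the table, so they are scores and not read counts, and no count test was run. How contigs were assembled and reads aligned and counted is not stated in the labels. The 16 deposited columns of means and standard deviations were not used. Reads per library were estimated from the steps between low values, and the table states no depth.

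Scores were transformed as log2(value + 1), and a contig was tested if its mean over the 21 nectary libraries reached 10 (38457 of 42063). A model with 1 mean per line over these 21 libraries was fitted with limma 3.58.1 (R 4.3.3; empirical Bayes with a trend), and the contrast was the mean of lines 452 and 456 minus that of 412 and 441. P-values are two-sided and Benjamini-Hochberg adjusted over all contigs tested. The constant of 1 limits the fold of contigs near 0, so no fold is given for them. On data simulated for this comparison over 38457 contigs the fit recovered 78.0% of contigs changed 2-fold and 100% of those changed 4-fold, with 4.45% false calls. All simulated libraries shared the same contig means and 1 fixed spread, and only contigs with a mean of at least 50 were changed. The simulation held no differences between lines of a class and no library like 452-3, so its rates do not carry over to these data. Summaries used Python 3.11.15 and pandas 2.3.3. No statement in the labels says that replicates are separate cultures beyond their pooled plants, so p-values measure the spread between these pools.

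The comparison, the gene lists and their members were chosen with earlier results of these data known. Named contigs were the 10 largest increases and 10 largest decreases among called, matched contigs without overlap and with a higher class mean of at least 100, taking only the larger change of each match, up to 3 called contigs per list with a higher class mean of at least 50, and the most abundant contig of 9 nectar genes whatever its result (CWINV4 and SPS2F, also in the rule, had no contig). Other contigs named were chosen after their values were seen. Alternatives were another constant, filter, scaling, weighting, set of libraries, unit of replication and each library left out; fits of line 452 or line 456 alone were added after seeing the data.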

Additional observations from a re-analysis of the deposited data

Results flagged for a closer look

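In 20 of 172 groups of 6 libraries (11.6%), 1 library lay far from the other 5 by Dixon's criterion. Its nominal rate of about 1 in 20 holds for independent groups of normal values. The groups here are of contigs named mostly for their class change, some of the same match, so the rates cannot be compared. Replicate 1 of line 452 accounted for 11 of the 20 groups. In the medium lines it was highest for both KAO1 contigs (309 in Helianthus20665 and 180 in Helianthus20666) and for the BARD1-like contig Helianthus18281 (241). The ABC-family contig Helianthus18578 reached 133, ERD15 (Helianthus11699) 120, the lipid-transport contig Helianthus25679 104 and the ZPR1 zinc finger contig Helianthus30411 299. It was also highest for ACO4 (Helianthus5749, 7928) and for TIP4;1 (147 in Helianthus6785 and 309 in Helianthus6786), and lowest for the GI contig Helianthus13505 (37).

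Replicate 2 of line 456 was lowest for SWEET7 (Helianthus33780, 70) and highest for Rubisco activase (Helianthus32272, 580), LOX2 (Helianthus37631, 193) and HMGR1 (Helianthus15086, 224). Replicate 3 of line 452 was highest for VHA-A2 (Helianthus2241, 102). In the low lines, replicate 3 of line 412 was highest for ERD15 (Helianthus11699, 450), replicate 1 of line 412 was lowest for the clathrin contig Helianthus26042 (44) and highest for JAZ1 (Helianthus35366, 472), and replicate 1 of line 441 was highest for CWINV2 (Helianthus23193, 67684).

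Lines 452 and 456 differed from each other, by limma adjusted p under 0.05 for the difference itself, in 20 of the named contigs. Line 452 was higher (log2 difference, line 452 minus line 456) for the pectin methylesterase contig Helianthus39156 (6.39), Helianthus25679 (5.46), COI1 (Helianthus31450, 5.37), FIL (Helianthus11663, 4.72), KS (Helianthus27910, 4.62) and JAZ1 (Helianthus35366, 4.60). It was higher by less for TIP4;1 (Helianthus6786, 2.28), CWINV2 (Helianthus23193, 1.83), ACO4 (Helianthus5749, 1.58), the OB-fold contig Helianthus819 (1.48), OST1 (Helianthus32311, 1.45) and AHA1 (Helianthus29751, 0.99). It was lower for ECT2 (Helianthus28305, -6.32), the glycosyltransferase Helianthus34901 (-3.62), BAM1 (Helianthus13166, -3.26), XTH9 (Helianthus5425, -2.66), SPS4F (Helianthus28575, -2.21), the phosphodiesterase Helianthus28794 (-2.08), OST1 (Helianthus32324, -1.90) and STP7 (Helianthus29820, -1.41).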

How the results depend on the processing

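With all settings as described, 2186 contigs were higher and 3456 lower. Library weights gave 3459 higher and 5354 lower, a mean of at least 50 gave 1880 lower, and the 12 compared libraries alone gave 1414 higher. A model with 1 mean per class gave 667 and 1264, values summed over contigs of a match gave 498 and 590 of 9773 matches, and the line as the unit gave 0 and 0. Leaving out each library in turn gave 1696 to 2558 higher and 2606 to 5916 lower, the last without replicate 1 of line 452, and 5597 were lower without its replicate 2. Rescaling by the median ratio gave 2631 and 3237, and an added constant of 5, no filter or leaving out replicates 452-3 and 456-2 stayed within 1.5 times of both counts. Replicate numbers did not pair libraries, since same-numbered libraries correlated at -0.3 to 0.26 with 5 of 18 pairs over 0.1, and the replicate block gave 2139 and 3404. For line 452 alone, an alternative chosen after seeing the data, 4 named contigs turned direction and none passed, at 0.75 for COI1 (Helianthus31450), 0.62 for JAZ1 (Helianthus35366), 0.40 for KS (Helianthus27910) and -0.27 for OST1 (Helianthus32324). Of 86 named contigs, 82 kept their direction and side of the threshold after rescaling, 79 without replicates 452-3 and 456-2 68 in the 12 libraries alone, 70 for line 456 alone, 60 for line 452 alone, 51 with 1 mean per class and 7 with the line as the unit. Causes were not tested beyond the fewer libraries or contigs that some settings hold by construction. With 2 lines per class, differences of single genotypes cannot be told apart from nectar class, and values under about 10 lie near the level of a few reads.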
